A study of Mus musculus with 18 samples.

Results

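The 6 libraries of mouse colon in the TNBS group were compared with the 6 libraries of the vector group, which are the controls of the study. These are 12 of the 18 libraries of the series, and every library labelled with either group was used. TNBS is trinitrobenzene sulfonic acid, and the remaining 6 libraries are a group labelled IBC. The IBC libraries entered the choice of genes tested, the scaling and the estimate of the spread between libraries, but not the difference itself. The title of the series names isobavachalcone, a plant chalcone. The table holds 35405 genes, of which 20855 had enough counts to be tested. Levels are counts relative to the scaled library totals (CPM), differences are log2 values of TNBS minus vector with their standard error, and a gene is said to have risen or fallen only where the p-value of edgeR's quasi-likelihood test, adjusted over the 20855 genes, was under 0.05. The labels do not give the strain, sex or age of the mice, nor the dose, route or time of the TNBS. They also do not say what the vector group received, or whether each library is a separate animal, so the spread behind each p-value is one between libraries and may be technical.

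TNBS is a hapten that binds to proteins of the gut wall. Given with ethanol into the rectum, it breaks the epithelial barrier and brings on an inflammation of the whole wall, driven by macrophages and T cells and filled with neutrophils. Injured colon is known to release chemokines of the CXC family, which draw neutrophils, and of the CC family, which draw monocytes, while the epithelium repairs itself by proliferation and the muscle layers are remodelled.

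The tissue label was checked against 10 genes of colon epithelial identity (among them Cdx1, Cdx2, Epcam, Vil1 and Cdh17). All were measured, and their summed level ran from 10889 to 15172 CPM in vector and from 12440 to 18786 CPM in TNBS. Totals ran from 55.7 to 78.0 M counts per library. Several libraries stood apart from their group. The transcription factor gene Hoxb13, which marks the hindmost part of the body, was between 149 and 598 CPM in 8 of the 12 libraries and at most 1.44 CPM in vector 3, vector 4, TNBS 2 and TNBS 3, which are called Hoxb13-low below, so that each group holds 4 high and 2 low. Mitochondrially encoded genes took 17.98% of the counts of vector 3. Vector 6 alone held large amounts of the pancreatic enzyme RNAs Ctrb1 and Cpb1. They were at 6914 and 1471 CPM, against at most 1.67 CPM of either in the other 11 libraries. The 3 tested pancreatic genes together summed to 10767 CPM in vector 6 and to 16.6 to 379 CPM in the other 11 libraries. Spread was wider in TNBS: the standard deviation of the log2 level was the larger in TNBS for 15444 genes (74.1%), with a median of 0.55 against 0.37.

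Of the 20855 genes, 4 passed the test (0.0192%). Chil3 rose (0.0048%), and Synm, Opcml and Disp3 fell (0.0144%). Before adjustment, 3703 genes (17.8%) had a p under 0.05, where uniform p-values would give 5%, and 2177 of them were higher (10.4%) and 1526 lower (7.32%) in TNBS. The shares of 10.4% and 7.32% are the background for all counts of list members below. The 6 TNBS libraries lay above all 6 vector libraries for 90 genes (0.432%) and below all of them for 155 (0.743%), together 1.17% of the genes. These separated genes differed by a median log2 of 0.68 and -1.01, with signs fixed by the way they were chosen. How many genes passed depended on the method: DESeq2 passed 574 (2.76%, with 331 or 1.59% higher and 243 or 1.17% lower) and edgeR with the Hoxb13 set as a covariate passed 142 (0.681%, with 74 or 0.355% higher and 68 or 0.326% lower). All 4 genes were among both. Without TNBS 6 the edgeR test passed 323 genes. Without vector 2 or vector 4 it passed 2, without vector 5 or TNBS 1 it passed 1, and without any one of the other 7 libraries 0. TNBS 6 was the TNBS library nearest to vector for 47 of the 90 higher and 49 of the 155 lower genes, while TNBS 5 was the farthest for 50 and 74.

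**Figure D1:**
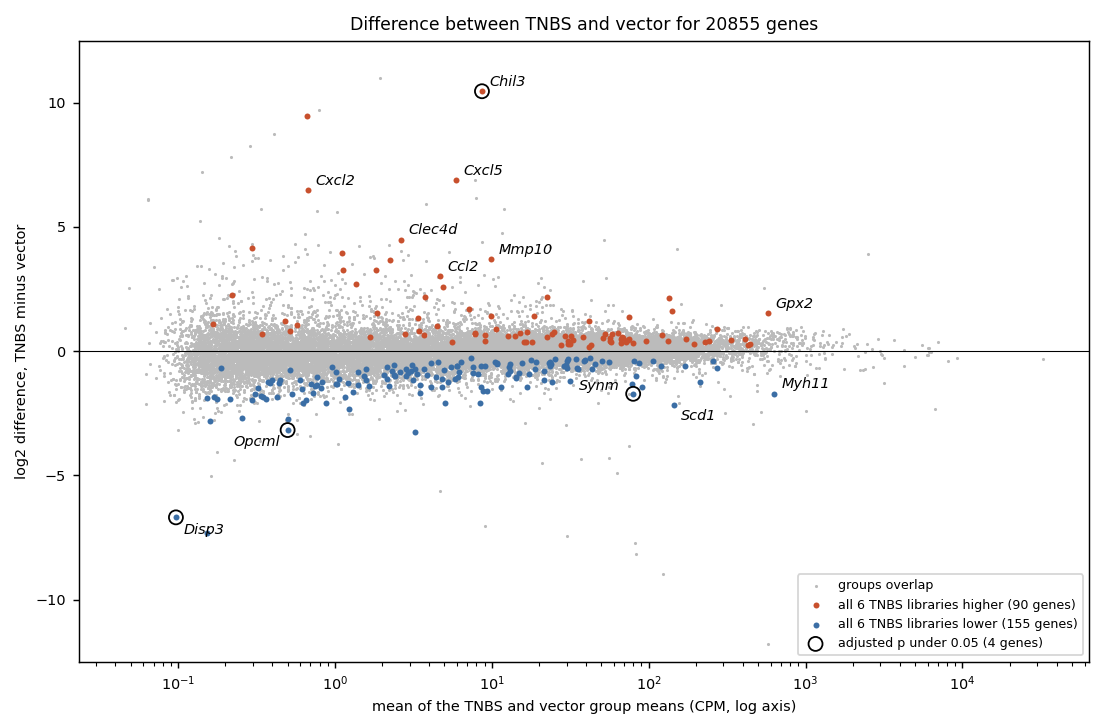
Log2 difference between TNBS and vector (vertical axis) against the mean level of the 2 groups (horizontal log axis, CPM) for the 20855 genes tested. Red and blue points are the 90 and 155 genes whose groups of 6 libraries do not overlap, grey points all others, and open circles the 4 genes that passed; genes at the far bottom such as Ctrb1 rest on 1 vector library.

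Chil3 encodes a secreted chitinase-like protein (Ym1) of activated macrophages and neutrophils, and it was the gene that rose (chromosome 3, 106054870 to 106074880, ENSMUSG00000040809, as placed in the table, whose build is not given in the sources used here). It stood at 0.0626 CPM in vector 1 and at 0 in the other 5 vector libraries, against 0.878, 1.31, 25.8, 10.1, 65.7 and 0.217 CPM in TNBS 1 to 6. Every TNBS library lay above every vector library, with TNBS 5 and TNBS 3 the highest and TNBS 6 the lowest of the TNBS libraries. The fitted log2 difference was 10.47 ± 1.64 (edgeR adjusted p = 0.0471), a size that rests on 4 counts in vector against 6043 in TNBS. Its near copy Chil4, which holds 16.9% of the 50-base stretches of Chil3, was at 0 in all 12 libraries.

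Synm encodes synemin, an intermediate filament protein that ties desmin filaments to the anchoring points of muscle cells (chromosome 7, 67379908 to 67409441, ENSMUSG00000030554, as placed in the table). Its level was 96.6, 71.9, 188, 163, 100 and 114 CPM in vector 1 to 6, and 54.4, 40.3, 33.9, 31.7, 14.4 and 48.3 CPM in TNBS 1 to 6. The highest TNBS library stayed below the lowest vector library. Synm fell by 1.72 ± 0.28 on the log2 scale (edgeR adjusted p = 0.0471).

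Opcml and Disp3 are weakly expressed. Opcml encodes a cell adhesion molecule of neurons with immunoglobulin domains (chromosome 9, 27702071 to 28836706, ENSMUSG00000062257, as placed in the table), and it was 0.389 to 1.88 CPM in vector (median 0.892) and 0.0621 to 0.128 CPM in TNBS (median 0.108). It fell by 3.18 ± 0.46 on the log2 scale, with no overlap of the groups (edgeR adjusted p = 0.0316). Disp3 encodes a membrane protein related to Dispatched (chromosome 4, 148324721 to 148372422, ENSMUSG00000041544, as placed in the table), and had 11, 11, 16, 15, 8 and 14 counts in vector 1 to 6 and none in any TNBS library. Disp3 fell (edgeR adjusted p = 0.0484). Taking each count as 1 fragment, a floor of 3 counts per library made it at least 4.05-fold lower in TNBS. A single fragment may be worth more than 1 count in these files, since among the 12 libraries a value of 4 occurred 13231 times, more often than 3 (6543 times) or 5 (4149 times). The bound on Disp3 would then be lower. With counts divided by 4, no gene passed, and Opcml and Disp3 no longer had enough counts to be tested.

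Most chemokine genes were higher in TNBS than in vector. Of 28 tested, 25 had a positive difference, 17 had an unadjusted p under 0.05 and were higher (background 10.4%), none was lower, and 7 had separated groups (Ccl2, Ccl3, Ccl4, Ccl7, Cxcl1, Cxcl2 and Cxcl5, background 0.432%). The median difference was 1.62, against -0.01 for all genes, and 1.22 and 1.45 in the Hoxb13-high and Hoxb13-low libraries. The summed level of the 28 genes overlapped between groups, at 611 to 734 CPM in vector and 511 to 1520 CPM in TNBS. For this sum, TNBS 4 and TNBS 6 lay below every vector library. None passed edgeR's test. DESeq2 passed 13 of them and the fit with the Hoxb13 covariate passed 7.

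The neutrophil chemokines Cxcl1, Cxcl2 and Cxcl3 are neighbours on mouse chromosome 5. Their RefSeq promoters are shown because all 3 hold the same 11 letters, marked in capitals, which contain a pair of overlapping matches to the NF-kB motif. NF-kB is the transcription factor that inflammatory signals release into the nucleus. Each line gives the 200 bases before the start of the gene in GRCm38.p6, 5′ to 3′ on the plus strand, at chr5:90891045-90891244 for Cxcl1, chr5:90903699-90903898 for Cxcl2 and chr5:90785901-90786100 for Cxcl3.
Cxcl1: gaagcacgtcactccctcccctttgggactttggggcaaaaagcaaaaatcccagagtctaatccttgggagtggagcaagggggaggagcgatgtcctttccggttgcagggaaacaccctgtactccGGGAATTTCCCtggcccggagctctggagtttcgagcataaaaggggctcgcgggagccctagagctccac
Cxcl2: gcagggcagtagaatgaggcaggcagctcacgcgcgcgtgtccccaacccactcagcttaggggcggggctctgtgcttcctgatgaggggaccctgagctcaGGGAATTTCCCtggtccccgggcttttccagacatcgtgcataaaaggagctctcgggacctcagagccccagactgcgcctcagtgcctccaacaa
Cxcl3: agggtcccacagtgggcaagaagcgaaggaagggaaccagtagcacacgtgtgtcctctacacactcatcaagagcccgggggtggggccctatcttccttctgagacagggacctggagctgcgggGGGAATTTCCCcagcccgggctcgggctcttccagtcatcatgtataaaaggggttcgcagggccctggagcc
The shared letters GGGAATTTCCC begin 71, 97 and 73 bases before the start. Searched on both strands of windows from 250 bases before to 50 after a start, the NF-kB motif stood in 6 of 21 windows of chemokine genes (28.6%) and in 10.4% of the 16872 windows of all genes tested. It stood in 11.3% of the windows of the 90 separated higher genes and in 11.9% of those of the 155 separated lower genes. Of the 28 chemokine genes, 20 had a window. Among the separated chemokines, Ccl2, Ccl4, Ccl7 and Cxcl5 had no window, and that of Ccl3 held no match. A match describes the letters and shows no binding.

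Cxcl1 was 0.232 to 0.552 CPM in vector (median 0.323) and 4.23, 1.61, 5.57, 0.812, 6.83 and 0.760 CPM in TNBS 1 to 6, a log2 difference of 3.28 ± 0.66 (edgeR adjusted p = 0.0902). Cxcl2 was detected in 1 vector library, at 0.0790 CPM, and in all TNBS libraries, between 0.0975 and 2.92 CPM with a median of 1.36. Cxcl3, chosen after its values were seen, was detected in 1 vector library at 0.0714 CPM and in 5 TNBS libraries at up to 1.39 CPM, and its groups overlap at 0. In all 3 genes TNBS 5 was the highest library. Cxcl5, another neutrophil chemokine that epithelial cells make, was 0 to 0.177 CPM in vector (median 0.0989) and 0.621 to 53.7 CPM in TNBS (median 3.22). Its 2 highest libraries were TNBS 5 and TNBS 1, at 53.7 and 9.17 CPM.

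Among the monocyte chemokines, Ccl2, the main ligand of the receptor CCR2, was 1.44, 1.12, 0.442, 0.772, 1.02 and 1.38 CPM in vector 1 to 6 and 5.87, 4.15, 14.4, 3.52, 20.3 and 2.05 CPM in TNBS 1 to 6. The groups were separated, with a difference of 3.03 ± 0.52 (edgeR adjusted p = 0.0559). Ccl7, another CCR2 ligand, chosen after its values were seen, was 0.426 to 2.09 CPM in vector and 2.19 to 22.6 CPM in TNBS. Per length, the deposited FPKM of Ccl7 (8.72 ± 6.96) and Ccl2 (6.12 ± 4.74, SD, n = 6) in TNBS did not differ beyond their spread, and that of Cxcl1 was 1.49 ± 1.10. Ccl3, a chemokine of activated macrophages, was at most 0.0649 CPM in vector and 0.114 to 1.09 CPM in TNBS.

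The receptor Ccr2 itself, which marks monocytes that have just left the blood and was chosen after its values were seen, was 2.10 to 4.91 CPM in vector (median 3.27) and 5.59 to 22.7 CPM in TNBS (median 9.49). All TNBS libraries were above all vector libraries, by 1.71 ± 0.47 (edgeR adjusted p = 0.134). In whole tissue, more cells of a type and more RNA per cell cannot be told apart.

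Of the 20 genes of inflammatory monocytes and macrophages tested, all 20 had a positive difference, 15 with an unadjusted p under 0.05, and 1 (Chil3) rose. Their summed level was 488 to 1108 CPM in vector and 731 to 3195 CPM in TNBS, so the groups overlap. The median difference was 1.53 and 12 passed DESeq2. Arg1, the arginase of alternatively activated macrophages, was 0.616 to 1.07 CPM in vector (median 0.823) and 46.3, 6.36, 3.25, 4.55, 73.1 and 1.05 CPM in TNBS 1 to 6. TNBS 6 lay within the vector range and the other 5 above it (difference 4.77 ± 1.01, edgeR adjusted p = 0.0909). Fpr2, a receptor for formylated peptides and inflammatory proteins, was 0.221 to 0.759 CPM in vector and 0.652 to 9.08 CPM in TNBS, with TNBS 3 and TNBS 5 highest.

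The neutrophil genes had the largest median difference of the leukocyte lists, 3.04 over 19 tested genes. Of these, 18 had a positive difference and 14 an unadjusted p under 0.05. Their summed level overlapped between groups, at 168 to 450 CPM in vector and 215 to 1100 CPM in TNBS. TNBS 1, TNBS 2 and TNBS 6 lay in the vector range of this sum. None passed edgeR's test and 11 passed DESeq2. Elane, Ngp, Camp, Stfa2 and Mrgpra2b, most of them made in immature neutrophils, had too few counts to be tested. Clec4d and Clec4e, lectin receptors of neutrophils and monocytes for microbial glycolipids, were the members with separated groups. Clec4d was 0.114 to 0.360 CPM in vector (median 0.186) and 2.65, 1.34, 3.67, 3.40, 18.8 and 0.543 CPM in TNBS 1 to 6. Its difference was 4.48 ± 0.85 (edgeR adjusted p = 0.0852), and Clec4e differed by 3.97 ± 1.03.

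S100a8 and S100a9 encode the 2 chains of calprotectin, and a single library set their TNBS means. S100a8 was 0 to 0.409 CPM in vector and 1.01, 1.15, 10.1, 1.41, 80.9 and 0.155 CPM in TNBS 1 to 6, so that TNBS 6 lay among the vector libraries. S100a9 was 0.130 to 1.13 CPM in vector and 0.838 to 118 CPM in TNBS, again highest in TNBS 5. Their medians in TNBS were 1.28 and 3.42 CPM against means of 15.8 and 23.4 CPM. Without TNBS 5 the differences were 3.70 for S100a8 and 3.34 for S100a9, against 6.18 and 5.73 with it. Mmp8, the neutrophil collagenase, had a TNBS median of 1.30 CPM and a vector median of 0, with TNBS 5 at 5.22 CPM and TNBS 6 at 0.124 CPM, below the highest vector library (0.178 CPM).

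**Figure D2:**
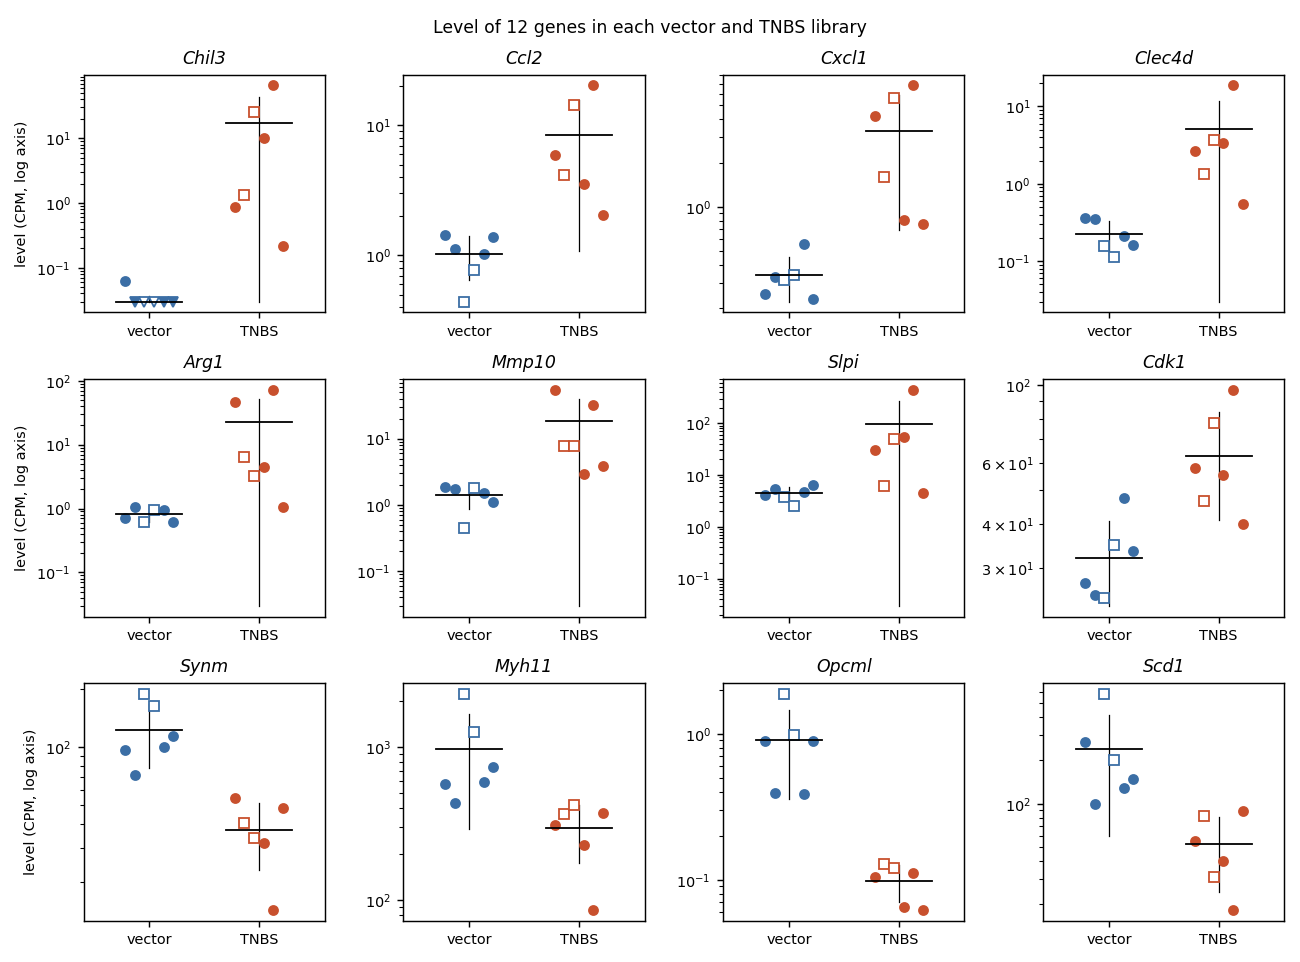
Level of 12 genes (vertical log axis, CPM) in each vector (blue) and TNBS (red) library; filled circles are Hoxb13-high and open squares Hoxb13-low libraries, triangles mark a level of 0 drawn at 0.03 CPM, the horizontal line is the group mean and the vertical line the mean ± 1 SD, ending at 0.03 CPM where it would go lower. For Chil3, Ccl2, Cxcl1, Clec4d, Mmp10, Synm, Myh11, Opcml and Scd1 the groups do not overlap, and for Arg1, Slpi and Cdk1 they do.

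Genes without a settled name were also higher. F630028O10Rik, a long noncoding gene on chromosome X within which RefSeq places the gene of miR-223, a microRNA of neutrophils, was 0 in 4 vector libraries, 1.06 and 0.848 CPM in the Hoxb13-low vector 3 and vector 4, and 1.27 to 11.3 CPM in TNBS (median 2.67). The groups were separated. The difference was 6.90 in the Hoxb13-high and 1.43 in the Hoxb13-low libraries, which the test of that difference did not separate (edgeR adjusted p = 0.14). B430306N03Rik, a neighbour of Treml2 and Trem2 on chromosome 17, was 0.0632 to 0.409 CPM in vector and 0.559 to 6.07 CPM in TNBS, and differed by 3.27 ± 0.65 (edgeR adjusted p = 0.0902).

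Cytokine genes were higher with more overlap. Of 19 tested, 14 had a positive difference, 8 had an unadjusted p under 0.05, and no member had separated groups. Tnf, an early cytokine of macrophages, was 0.297 to 1.71 CPM in vector (median 0.708) and 4.82, 2.40, 7.52, 1.09, 3.25 and 1.68 CPM in TNBS 1 to 6 (difference 2.09 ± 0.52, edgeR adjusted p = 0.107). TNBS 4 and TNBS 6 lay below vector 4. Il1b, which induces fever and endothelial activation, was 0.869 to 4.68 CPM in vector and 3.00 to 24.7 CPM in TNBS. For Il6, a cytokine of the acute phase, the levels were at most 0.189 CPM in vector and 0 to 1.21 CPM in TNBS. The alarmin Il33, stored in the nuclei of stromal and epithelial cells, was 4.01 to 11.3 CPM in vector and 25.3, 12.6, 25.3, 12.3, 25.4 and 4.27 CPM in TNBS 1 to 6, with only TNBS 6 in the vector range.

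Among 20 receptors and feedback regulators of cytokine signalling, 6 had an unadjusted p under 0.05 and were higher, and the median difference was 0.17. Tnfrsf1a, the main receptor of TNF, was 73.0 to 106 CPM in vector and 91.0 to 190 CPM in TNBS (difference 0.60 ± 0.16). Socs3, which is induced by STAT3 and shuts it off, was 8.16 to 12.9 CPM in 5 vector libraries and 87.9 CPM in vector 4, against 24.9 to 177 CPM in TNBS. The overlap of its groups came from that 1 vector library. Vector 4 was also the highest vector library of Iigp1, an interferon-induced GTPase, at 35.7 CPM against at most 7.44 CPM in the other 5. Interferon-stimulated genes as a list had a median of -0.33, with 1 of 20 higher and 2 lower at an unadjusted p under 0.05. TNBS 3 stood apart there, with a list median 1.5 above the vector mean while the other TNBS libraries were between -1.24 and -0.29. Genes of MHC class II presentation, which myeloid and B cells use to show antigen, gave none of 11 at an unadjusted p under 0.05 and a median of -0.33.

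Other leukocytes differed in kind. Mast cell genes had positive differences for all 8 tested (median 1.6), 4 of them at an unadjusted p under 0.05, and a summed level of 1.65 to 4.19 CPM in vector and 6.04 to 16.3 CPM in TNBS, with no overlap. Mcpt1, a protease of mucosal mast cells, was 0.237 to 0.990 CPM in vector and 7.4, 2.17, 3.55, 1.27, 0.297 and 7.59 CPM in TNBS 1 to 6. Here TNBS 6 was the highest TNBS library and TNBS 5, the highest for most chemokines named above, was the lowest. Hdc, which makes histamine, was 0.422 to 1.52 CPM in vector and 1.63 to 5.74 CPM in TNBS, without overlap (difference 1.53 ± 0.54, edgeR adjusted p = 0.198). Resident macrophage genes had a median of 0.66, with C1qa, a chain of complement C1q, at 21.7 to 60.6 CPM in vector and 33.6 to 184 CPM in TNBS. T and NK cell genes gave 1 of 15 at an unadjusted p under 0.05, which was Gzmb, the cytotoxic granzyme B, at a median of 0.160 CPM in vector and 1.95 CPM in TNBS. B and plasma cell genes gave 1 higher and 1 lower of 12, and eosinophil genes 1 higher of 6 (background 10.4% higher and 7.32% lower).

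Matrix enzymes and the clotting system were the next groups with positive medians. Mmp10 (stromelysin 2), a protease that migrating epithelial cells and macrophages secrete, was 0.442 to 1.88 CPM in vector (median 1.62) and 55.2, 7.75, 7.83, 2.89, 32.6 and 3.85 CPM in TNBS 1 to 6. The groups were separated (difference 3.69 ± 0.98, edgeR adjusted p = 0.118), and TNBS 1 and TNBS 5 were highest. The 200 bases before the start of Mmp10 in RefSeq (GRCm38.p6, chr9:7502142-7502341, plus strand) are shown because they hold the AP-1 motif TGANTCA, in capitals, 63 bases before the start. AP-1 is the factor formed by Fos and Jun proteins.
Mmp10: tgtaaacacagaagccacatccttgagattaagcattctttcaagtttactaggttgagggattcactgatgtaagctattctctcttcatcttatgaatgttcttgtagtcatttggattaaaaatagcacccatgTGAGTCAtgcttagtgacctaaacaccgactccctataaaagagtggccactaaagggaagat
This motif stood in 5 of 22 windows of matrix genes (22.7%), in 7 of 16 windows of coagulation and fibrinolysis genes (43.8%) and in 6% of all windows. Its share was 4.23% in the windows of the 90 separated higher genes and 5.22% in those of the 155 separated lower genes.

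Of 24 genes of the matrix and its enzymes, 8 had an unadjusted p under 0.05 and were higher, and the median was 0.59. The median was 0.94 in the Hoxb13-high libraries and -0.37 in the Hoxb13-low ones, a difference that was not tested for the list. Timp1, an inhibitor of metalloproteinases, was 2.00 to 3.77 CPM in vector and 12.4, 5.94, 15.1, 41.3, 40.3 and 1.37 CPM in TNBS 1 to 6. TNBS 6 was below every vector library and the other 5 TNBS libraries above every one. Among 16 genes of coagulation and fibrinolysis, 8 were higher at an unadjusted p under 0.05 (median 0.68). Plaur, the receptor of urokinase, was 5.73 to 8.40 CPM in vector and 27.9, 18.7, 35.3, 17.4, 26.1 and 5.94 CPM in TNBS 1 to 6, and differed by 1.63 ± 0.30 (edgeR adjusted p = 0.0774). Again only TNBS 6 lay in the vector range. Anxa2, which holds plasminogen activators on the cell surface, was 490 to 680 CPM in vector and 554 to 1736 CPM in TNBS.

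Stromal genes were less uniform. Of 16 fibroblast genes, 3 were higher and 1 lower at an unadjusted p under 0.05. Grem1, a BMP antagonist from cells below the crypts, was 184, 182 and 158 CPM in TNBS 1, 4 and 5 and 21.7 to 36.4 CPM in TNBS 2, 3 and 6, against 20.6 to 41.8 CPM in vector. Within TNBS it thus took 2 ranges that did not meet. Has1, which makes hyaluronan, differed by 2.68 ± 0.75 and was highest in TNBS 4 and TNBS 3, at 3.79 and 3.69 CPM. Hmox1, the haem-degrading oxygenase induced by oxidative stress, was 4.96 to 14.4 CPM in vector and 57.4, 14.2, 18.3, 22.6, 65.5 and 6.02 CPM in TNBS 1 to 6. Sele, the selectin by which activated endothelium catches leukocytes, had a vector median of 0 and a TNBS median of 0.394 CPM. Endothelial genes as a list had a median of 0.10.

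Among the lists of epithelial genes, defence genes were higher and most lineage genes lay near the background. Which cells of the whole tissue held these RNAs was not tested. Of 20 antimicrobial and injury genes, 6 had an unadjusted p under 0.05 and were higher, with a median of 0.84. Slpi, a secreted inhibitor of neutrophil elastase, was 2.54 to 6.55 CPM in vector (median 4.33) and 30.3, 6.10, 50.2, 54.3, 447 and 4.55 CPM in TNBS 1 to 6. The difference was 4.46 ± 0.96 (edgeR adjusted p = 0.0909), and TNBS 2 and TNBS 6 lay in the vector range. Lcn2, which withholds iron from bacteria, was 1.40 to 3.33 CPM in vector and 27.7 and 43.7 CPM in TNBS 3 and TNBS 5, but 2.00 to 4.68 CPM in the other 4. Ly6a, a surface protein of regenerating colon epithelium, was separated, at 33.1 to 64.7 CPM in vector and 72.8 to 480 CPM in TNBS (difference 2.13 ± 0.56, edgeR adjusted p = 0.113). Ly6a shares 15% of its 50-base stretches with Ly6c1, so part of its counts could be divided between them.

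Goblet cell genes, which make the mucus layer, had 3 of 13 lower at an unadjusted p under 0.05 (Bcas1, Clca1 and Klk1) and a median of -0.05. Clca1, a protease that processes mucus, was 8012, 23790, 953, 4789, 25690 and 3881 CPM in vector 1 to 6 and 1586, 852, 539, 1297, 959 and 8234 CPM in TNBS 1 to 6. TNBS 6 held more than 4 of the vector libraries and vector 3 less than 4 of the TNBS libraries (difference -2.32 ± 0.77, edgeR adjusted p = 0.182). Muc2, the main gel-forming mucin, was 2041 to 18440 CPM in vector and 980 to 14760 CPM in TNBS (difference -0.27 ± 0.61, edgeR adjusted p = 0.83), and turned positive, 0.35, in the Hoxb13-high libraries alone. Of 20 colonocyte transport genes, 2 were lower at an unadjusted p under 0.05, near the background of 7.32%. They were Nr3c2, the aldosterone receptor, and Scnn1a, a subunit of the sodium channel that this receptor induces. Scnn1a was 51.4 to 107 CPM in vector and 21.5 to 80.5 CPM in TNBS. Enteroendocrine and tuft cell genes gave 1 higher and 1 lower each, of 14 and 11, and crypt stem cell and Wnt target genes 2 lower of 13. The background was 10.4% higher and 7.32% lower.

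Squamous epithelium genes, which mark the lining of the anal canal and not the colon, had a median of 3.15 over 8 genes, 5 of them higher at an unadjusted p under 0.05, and their levels varied strongly between libraries. Krt14, a keratin of basal squamous cells, was 0.557 to 3.19 CPM in vector and 105, 1.07, 17.0, 0.747, 8.39 and 0.823 CPM in TNBS 1 to 6. The summed level of the list was 5.19 to 42.1 CPM in vector and 3.85 to 205 CPM in TNBS. In vector it was highest in the Hoxb13-low vector 4 and vector 3, at 42.1 and 21.6 CPM. In TNBS the Hoxb13-high TNBS 1 was highest, followed by the Hoxb13-low TNBS 3 at 43.7 CPM. Neither the source of these RNAs nor their part in the results on epithelial genes above was tested.

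Cell cycle genes were higher as a list. All 22 had a positive difference, 16 with an unadjusted p under 0.05, and the median was 0.70 (0.57 in the Hoxb13-high and 0.97 in the Hoxb13-low libraries). Cdk1, the kinase that starts mitosis, was 24.5 to 47.6 CPM in vector (median 30.3) and 58.0, 46.5, 78.0, 55.4, 97.3 and 40.1 CPM in TNBS 1 to 6. Vector 5 lay above TNBS 2 and TNBS 6, and the difference was 0.96 ± 0.24 (edgeR adjusted p = 0.103). Cdc20, which activates the ubiquitin ligase of anaphase, was 27.4 to 56.2 CPM in vector and 60.01 to 77.3 CPM in TNBS. Mcm5, part of the replicative helicase, was 13.4 to 66.7 CPM in vector and 68.2 to 93.4 CPM in TNBS. Both were chosen after their values were seen and were the members with separated groups. Rrm2, a subunit of the enzyme that makes deoxyribonucleotides, was 7.17 to 42.0 CPM in vector and 37.9 to 74.5 CPM in TNBS.

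The promoter of Cdk1 is shown as an example of the CCAAT box, a motif bound by NF-Y that is known from the promoters of mitotic genes. The line gives the 200 bases before the start in RefSeq (GRCm38.p6, chr10:69352913-69353112, minus strand, read 5′ to 3′ along the gene), with 2 copies of the box, written ATTGG because it lies on the opposite strand, in capitals 80 and 48 bases before the start.
Cdk1: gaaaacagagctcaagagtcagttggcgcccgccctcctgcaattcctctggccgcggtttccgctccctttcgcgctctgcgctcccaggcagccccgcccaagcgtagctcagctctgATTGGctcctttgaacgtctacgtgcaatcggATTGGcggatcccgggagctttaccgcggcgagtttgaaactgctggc
CCAAT on either strand stood in 15 of 18 windows of cell cycle genes (83.3%) and in 37.1% of all windows. Its share was 33.8% in the windows of the 90 separated higher genes and 41% in those of the 155 separated lower genes.

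Muscle genes were lower. All 18 contractile genes of smooth muscle had a negative difference, 11 with an unadjusted p under 0.05 (background 7.32%), 4 had separated groups (Myh11, Synm, Lmod1 and Synpo2, background 0.743%) and 1 (Synm) fell. Their median was -0.75, and -0.66 and -0.91 in the Hoxb13-high and Hoxb13-low libraries. The fit with the Hoxb13 covariate passed 7 of them and DESeq2 passed 6, all lower. The myosin heavy chain of smooth muscle, Myh11, was 571, 431, 2228, 1251, 596 and 747 CPM in vector 1 to 6 and 309, 365, 417, 229, 86.7 and 374 CPM in TNBS 1 to 6. TNBS 5 was the lowest library and vector 3 the highest, and the difference was -1.71 ± 0.39 (edgeR adjusted p = 0.0909). Synpo2, an actin-bundling protein of the muscle's dense bodies, was 72.2 to 240 CPM in vector and 19.3 to 66.6 CPM in TNBS. Lmod1, which starts actin filaments in smooth muscle, was 27.8 to 102 CPM in vector and 13.6 to 26.6 CPM in TNBS. Des, the filament partner of Synm, overlapped between groups, at 429 to 1043 CPM in vector and 242 to 801 CPM in TNBS (difference -0.56 ± 0.32, edgeR adjusted p = 0.354). Pln, which restrains the calcium pump and belongs to no list, was 5.71 to 28.3 CPM in vector and 0.227 to 5.62 CPM in TNBS. The summed level of the contractile list was 4759 to 13267 CPM in vector and 3208 to 6778 CPM in TNBS, and vector 3, the library with the most mitochondrial RNA, also had the most Myh11. Without vector 3 no gene passed, and Synm differed by -1.54 (edgeR adjusted p = 0.108).

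Nerve cells of the gut wall lie between the muscle layers. Of 20 genes of enteric neurons, 5 had an unadjusted p under 0.05 and were lower, 2 had separated groups and 1 (Opcml) fell; the median was -0.49. Rbfox3, the neuronal nuclear antigen NeuN, was 0.314 to 0.963 CPM in vector and 0 to 0.264 CPM in TNBS (difference -1.81 ± 0.55, edgeR adjusted p = 0.163). Syt1, the calcium sensor of transmitter release, was 3.65 to 7.93 CPM in vector and 1.23 to 5.25 CPM in TNBS. The summed level of the list overlapped between groups, at 126 to 219 CPM in vector and 102 to 221 CPM in TNBS. Enteric glia genes had a median of -0.47, with 3 of 12 lower at an unadjusted p under 0.05, among them the cadherin Cdh19. The difference was positive for 4 of the 12. The summed level of the glia list went the other way, with a median of 441 CPM in vector and 600 CPM in TNBS. It overlapped between groups, at 391 to 585 CPM in vector and 270 to 910 CPM in TNBS. Genes of pacemaker cells and PDGFRA cells, which pass signals to the muscle, had a median of -0.45, with 1 of 11 higher (Gja1) and 1 lower, Gucy1a1, a subunit of the nitric oxide receptor. Gucy1a1 was 13.5 to 41.1 CPM in vector and 7.83 to 14.9 CPM in TNBS. Vector 3 was the highest vector library and TNBS 5 the lowest TNBS library for Syt1 and Gucy1a1.

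**Figure D3:**
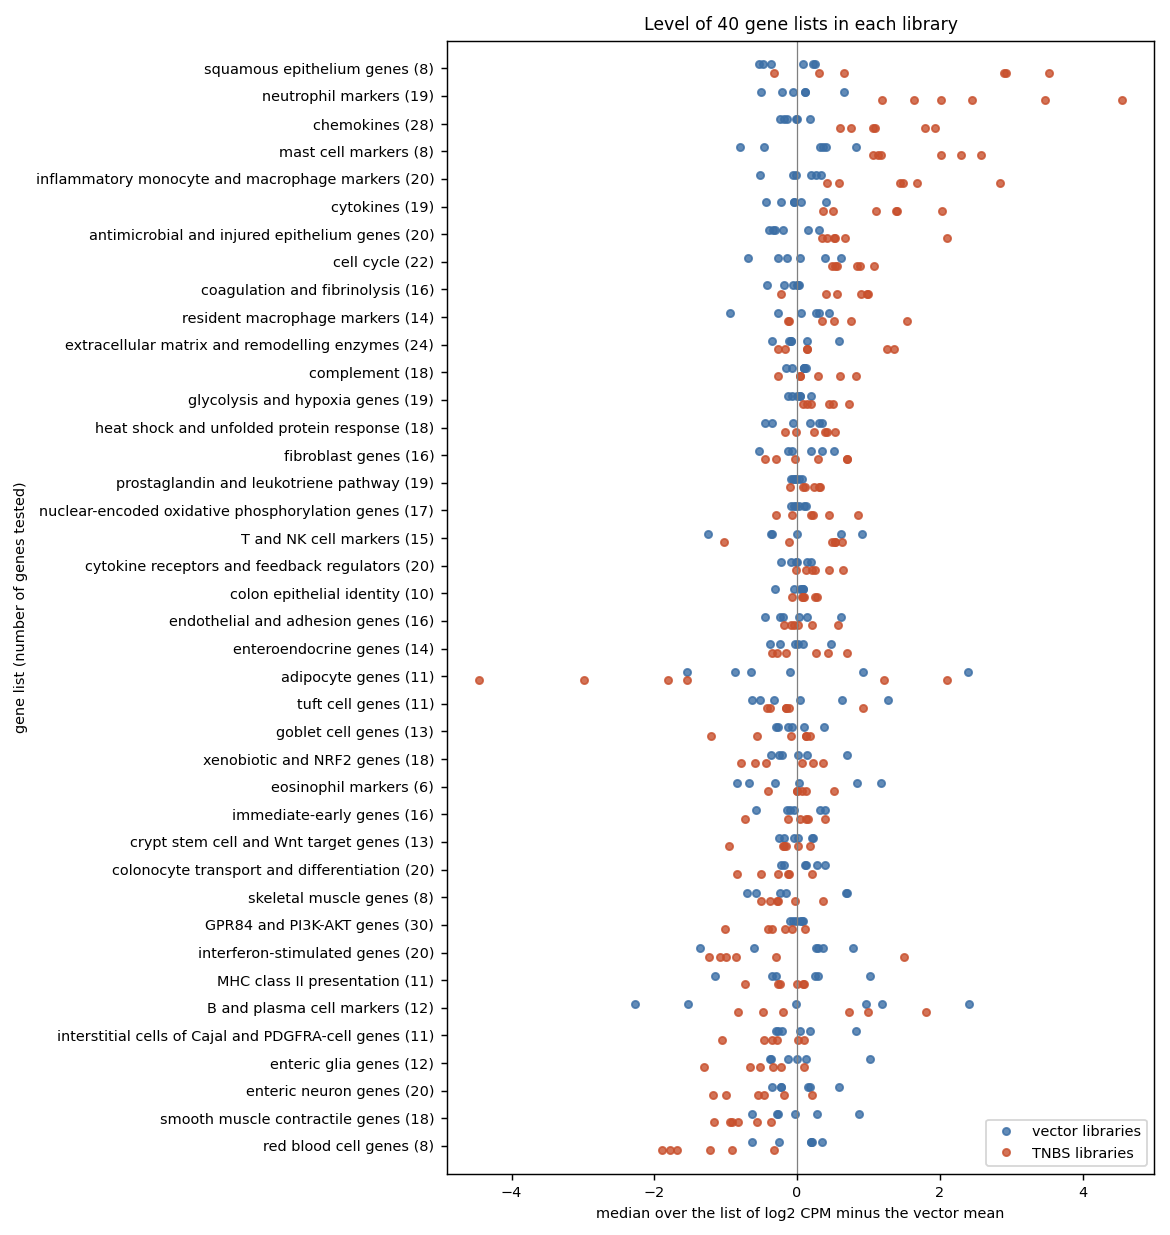
Median over each of 40 gene lists (vertical axis, number of tested genes in brackets) of the log2 CPM minus the mean of the vector libraries (horizontal axis), for each vector (blue) and TNBS (red) library. All 6 TNBS libraries lie to the right of all vector libraries for neutrophil markers, chemokines, mast cell markers, inflammatory monocyte and macrophage markers and the antimicrobial list; the pancreatic list, which rests on vector 6, is not drawn.

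Among the lower genes outside the wall lists, Scd1, the enzyme that makes monounsaturated fatty acids, was 269, 99.1, 580, 203, 129 and 148 CPM in vector 1 to 6 and 55.2, 82.7, 30.9, 39.98, 18.3 and 88.8 CPM in TNBS 1 to 6. The groups were separated (difference -2.18 ± 0.61, edgeR adjusted p = 0.138). Scd1 is abundant in fat tissue, and 11 adipocyte genes were measured beside it. None had an unadjusted p under 0.05, and their summed level was 201 to 1735 CPM in vector and 160 to 2224 CPM in TNBS. Vector 3 was the highest vector library for both this sum and Scd1. TNBS 2 had the highest sum of all, with Scd1 at 82.7 CPM. The adipocyte median was -2.54 in the Hoxb13-high and 0.53 in the Hoxb13-low libraries. Whether attached fat had a part in the Scd1 difference was not tested. Ank1, the ankyrin of red blood cell and muscle membranes, was 2.86 to 7.56 CPM in vector and 1.06 to 2.49 CPM in TNBS (difference -1.69 ± 0.29, edgeR adjusted p = 0.0559). Red blood cell genes had a median of -1.31, with 5 of 8 lower and 1 (Bpgm) higher at an unadjusted p under 0.05. The lower ones were Alas2 and the globin genes Hba-a1, Hba-a2, Hbb-bs and Hbb-bt. Hba-a1 shares 72.3% of its 50-base stretches with Hba-a2, and Hbb-bs shares 53.2% with Hbb-bt. Counts could thus be divided within each globin pair, whose members are not separate evidence. Alas2, which starts haem synthesis in red cell precursors, was 1.30 to 3.38 CPM in vector and 0.448 to 1.901 CPM in TNBS. Siglech, a receptor of plasmacytoid dendritic cells, was 0.647 to 1.93 CPM in vector and 0.162 to 0.559 CPM in TNBS, without overlap.

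Genes of glucose use were higher. Of 19 glycolysis and hypoxia genes, 9 had an unadjusted p under 0.05 and were higher, with a median of 0.34. Eno1, the enolase of glycolysis, was 292 to 383 CPM in vector and 384 to 631 CPM in TNBS, separated by a narrow margin (difference 0.50 ± 0.16, edgeR adjusted p = 0.17). Slc16a3, which exports lactate, was 6.47 to 13.8 CPM in vector and 72.1 and 37.4 CPM in TNBS 1 and TNBS 5, but 9.96 to 20.8 CPM in the other 4. Hk3, the hexokinase of myeloid cells, was 0.689 to 1.92 CPM in vector and 1.84 to 3.88 CPM in TNBS. Genes of oxidative phosphorylation encoded in the nucleus had a median of 0.29, with 2 of 17 higher at an unadjusted p under 0.05 (background 10.4%). Of 16 immediate-early genes, 3 were higher and the median was -0.11. Fosl1, a Fos family member of AP-1, was at most 0.0943 CPM in vector and 0.0931 to 1.33 CPM in TNBS.

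The title of the study names the receptor GPR84 and the kinases PI3K and AKT, and so these genes were described whatever their result. Of 30 tested, 2 were higher (Gpr84 and Akt1, background 10.4%) and 5 lower (background 7.32%) at an unadjusted p under 0.05. Foxo3, Pik3r3 and Tsc1 were among the lower ones. A negative difference was found for 24 of the 30, and none passed edgeR's test, DESeq2 or the fit with the Hoxb13 covariate. Gpr84, through which medium-chain fatty acids act on myeloid cells, was 0 in 4 vector libraries and 0.101 and 0.0649 CPM in vector 4 and vector 5. In TNBS 1 to 6 it was 0.179, 0.224, 1.30, 0, 0.947 and 0 CPM, so that TNBS 4 and TNBS 6 had none. The difference was 3.83 ± 1.27 (edgeR adjusted p = 0.182), on 12 counts in vector and 164 in TNBS. Gpr84 was highest in TNBS 3 and TNBS 5, the libraries that also held the most Clec4d and S100a9.

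Akt1, the widely expressed AKT kinase, was 167 to 246 CPM in vector and 215 to 365 CPM in TNBS (difference 0.33 ± 0.14, edgeR adjusted p = 0.238). Foxo3, a transcription factor that AKT keeps out of the nucleus, was 58.9 to 84.2 CPM in vector and 26.3 to 68.4 CPM in TNBS (difference -0.62 ± 0.19, edgeR adjusted p = 0.172). Pik3r3, a regulatory subunit of PI3K, was 35.8 to 54.3 CPM in vector and 14.8 to 41.3 CPM in TNBS. For Foxo3 and Pik3r3 every TNBS library lay below the vector median. RNA levels say nothing of the activity of these kinases.

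Because each group mixes Hoxb13-high and Hoxb13-low libraries, the differences were also taken within each set, 4 libraries against 4 and 2 against 2. A test of whether the TNBS difference itself differed between the sets passed 0 of 20855 genes with edgeR, and 950 (4.56%) had an unadjusted p under 0.05. On simulated data this test recovered 13.5% of 4-fold changes, with 6.9% false calls. The simulated spread came from a fit of the groups without the Hoxb13 sets, so these shares hold for that setting only. With 2 low libraries a group, the lack of passing genes does not show that the sets differed alike. The list medians had the same sign in both sets for neutrophil markers (2.63 and 2.75), mast cell markers (1.91 and 1.51) and red blood cell genes (-1.15 and -1.37). They had opposite signs for, among others, adipocyte genes (-2.54 and 0.53), B and plasma cell genes (-0.34 and 1.59) and the matrix list, differences that were not tested.

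**Figure D4:**
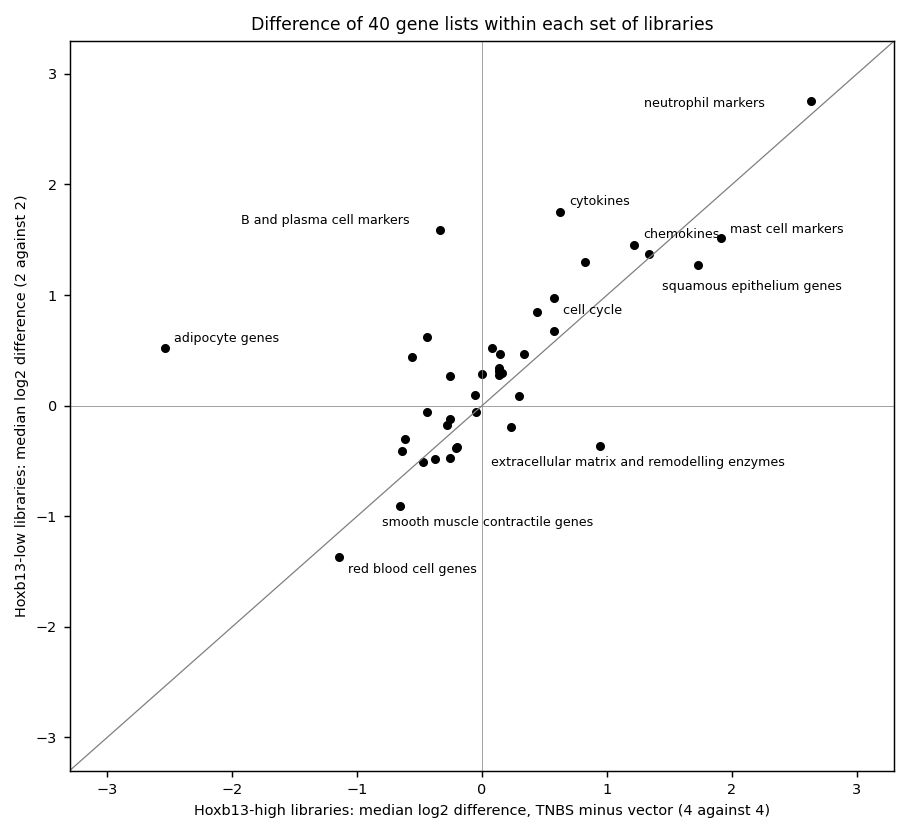
Median log2 difference between TNBS and vector of 40 gene lists in the Hoxb13-high libraries (horizontal axis, 4 against 4) and in the Hoxb13-low libraries (vertical axis, 2 against 2), with the line of equality. Points near the line, such as neutrophil markers, chemokines and smooth muscle contractile genes, had like values in both sets, while adipocyte, B and plasma cell and extracellular matrix genes lie in quadrants of opposite sign.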

How the data were processed

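Polyadenylated RNA of mouse colon was sequenced in 18 libraries, 6 each labelled vector, TNBS and IBC. The authors deposited 1 table of 35405 genes that holds, per the file headers, counts and FPKM values (fragments scaled to transcript length and library depth). Reads were trimmed with cutadapt 1.9, per the submitters' processing notes. Aligner, counter and build: not given in the sources used here. Gene positions are therefore the table's own, with no build named. Every value column was used. Library totals were 55.7 to 78.0 M counts in the 12 libraries compared.

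Counts were filtered with filterByExpr and scaled by TMM, and tested with edgeR 4.0.16 (R 4.3.3) quasi-likelihood over all 18 libraries, with Benjamini-Hochberg adjustment at 0.05. FPKM served only for levels between genes and for limma 3.58.1 on log2 values with a pseudocount of 1 or 0.1. DESeq2 1.42.0, other scalings and filters, a Hoxb13 covariate (high above 50 CPM) and left-out libraries were alternatives. Tested on simulated data for TNBS against vector (20855 genes), the edgeR test recovered 25% of 2-fold and 69.2% of 4-fold changes. Of its calls, 3.03% were false. Each gene was simulated with the same spread in all groups, whereas 74.1% of genes spread wider in TNBS in the data. These shares therefore hold for that setting only.

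Named genes were those that passed; the 12 largest and 12 smallest differences among genes of mean CPM at least 1 with separated groups; the 4 smallest p-values of each of 41 lists; some fixed genes; and the 10 highest FPKM of each group. Of 683 listed genes 636 were tested. The lists and genes were chosen with earlier results of these data known. The labels do not say whether replicate numbers mark pairs, and the main test did not use them. Correlations of the deviations of same-numbered libraries ran from -0.342 to 0.325, which does not settle it. Promoters came from RefSeq (GRCm38.p6, 16872 windows of 13295 tested genes), searched on both strands for NF-kB, CArG box, the AP-1 motif TGANTCA, the CCAAT box and the TATA box. Sharing of 50-base stretches was computed from GENCODE M21 transcripts.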

Additional observations from a re-analysis of the deposited data

Results flagged for a closer look

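Values are given here where the gap between the highest or lowest library and its nearest neighbour was large against the range of its group of 6. The check covered 232 pairs of gene and group, 82 of list and group and 10 of library property and group, and gave 34 such values; chance gives about 1 in 20 groups. Vector 3 held 13 of them, vector 6 held 6 and TNBS 5 held 5.

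Vector 3 had 17.98% mitochondrial counts (5.55 to 7.08% in the other vector libraries), 36.3% of counts in the 100 most abundant genes (22.5 to 25.4%) and a median absolute log2 deviation of 0.37 (0.19 to 0.23). Its muscle, nerve and stroma side was high, with Gucy1a1 at 41.1 CPM (13.5 to 19.2) and the enteric glia list at a median of 1.02 (-0.37 to 0.13). Hmox1 at 14.4 CPM and the predicted gene Gm45512 at 2.50 CPM were also high there, and Cxcl2 was at 0.0790 CPM with 0 in the others. Low in vector 3 were Mmp10 at 0.442 CPM, Mcm5 at 13.4 CPM, Siglech at 0.647 CPM, Rnf183 at 0 CPM and the colon epithelial identity list at a median of -0.31 (-0.05 to 0.08).

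Vector 6 had 6914 CPM of Ctrb1, 1471 CPM of Cpb1 and a pancreatic list median of 10.25. It also had Cxcl3 at 0.0714 CPM, Timp1 at 3.77 CPM and S100a8 at 0 CPM. Vector 4 had Socs3 at 87.9 CPM and Iigp1 at 35.7 CPM. Vector 1 had Anxa2 at 680 CPM (490 to 544) and the only Chil3 of its group, 0.0626 CPM.

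Among the TNBS libraries, TNBS 5 was low for Synpo2 (19.3 CPM), the glial cadherin Cdh19 (0.724 CPM), Gucy1a1 (7.83 CPM), Gm45512 (0 CPM) and the median of crypt stem cell and Wnt target genes (-0.95, others -0.20 to 0.18). TNBS 4 was low for Pln (0.227 CPM) and Scube2 (0.0650 CPM). TNBS 3 was high for the medians of interferon-stimulated genes (1.5) and of antimicrobial genes (2.11, others 0.35 to 0.67). TNBS 6 was high for the median of tuft cell genes (0.93, others -0.42 to -0.11) and had Ctrb1 at 0 CPM.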

How the results depend on the processing

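The number of genes passing was 4 and depended on the method. It was 0 without the low-count filter, with counts divided by 4, with the 12 libraries only, in the Hoxb13-high or the Hoxb13-low libraries alone, without vector 3 and TNBS 5 together, and with limma on log2(FPKM + 1) or log2(FPKM + 0.1). It was 2 with a stricter filter, 142 with the Hoxb13 covariate and 574 with DESeq2. After the data were seen, the covariate fit was repeated without TNBS 5 (10 genes) and without vector 6 (2 genes). Leaving out 1 library at a time gave 0 to 323 passing genes, 290 to 1244 genes with separated groups and 0 to 5 genes in the test between Hoxb13 sets; the 323 and 1244 came without TNBS 6. Separated groups numbered 245, against 1118 in the Hoxb13-high libraries and 441 without vector 3 and TNBS 5, where fewer libraries have to separate. Without those 2 libraries 2263 genes, against 3703, had an unadjusted p under 0.05, and the test between sets passed 6, against 0. With the replicate number as a block, 1 gene passed, none of the 4. Whether the numbers mark pairs is not given in the labels.

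Directions turned for 4 genes named here, and the cause was not tested. Muc2 was 0.35 in the Hoxb13-high libraries, 0.22 without vector 3 and TNBS 5 and 0.098 with the covariate and without TNBS 5. Ctrb1 was 0.14 in the Hoxb13-low libraries, 0.40 without vector 6 and 0.32 with the covariate and without vector 6. Cpb1 was 0.53 without vector 6 and 0.18 with the covariate and without vector 6. With single libraries left out, Ctrb1 ran from -12.04 to 0.40, Cpb1 from -9.85 to 0.53 and Hoxb13 from -0.66 to 0.28. List medians also had another sign in some of 28 settings: in 17 for tuft cells, 14 for adipocytes, 10 for enteroendocrine cells, 6 for B and plasma cells, 4 each for eosinophils and immediate-early genes, 3 each for T and NK cells and xenobiotic genes, 2 each for skeletal muscle and pancreatic genes, and 1 each for the interferon-stimulated, MHC class II, endothelial, crypt stem cell and matrix lists. A level of a few counts, as in Disp3, Gpr84 and Cxcl3, is limited by depth.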

Other observations

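The genes in this section other than Gm49948 were chosen after their values were seen, none of the genes here passed the edgeR test, and no set of them was tested. Among abundant epithelial genes, Gpx2, the glutathione peroxidase of the gut lining, was 179 to 430 CPM in vector (median 299) and 449 to 1576 CPM in TNBS (median 683). The groups did not overlap (difference 1.52 ± 0.31, edgeR adjusted p = 0.0903). Capg, which caps actin filaments in macrophages and epithelium, was 30.5 to 53.5 CPM in vector and 55.9 to 200 CPM in TNBS. Ifitm1, an interferon-induced membrane protein, was 6.07 to 9.51 CPM in vector and 9.70 to 112 CPM in TNBS, although the interferon-stimulated list as a whole had a negative median. Nt5dc2, a member of the nucleotidase family, was 4.57 to 6.52 CPM in vector and 6.75 to 29.6 CPM in TNBS. For Capg, Ifitm1, Nt5dc2 and Gpx2 TNBS 5 was the highest library.

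On the lower side, several genes of muscle relaxation and neural control of the gut wall lay outside the lists. Chrm2, a muscarinic acetylcholine receptor of smooth muscle, was 14.2 to 19.4 CPM in vector and 1.76 to 10.5 CPM in TNBS (difference -1.43 ± 0.30, edgeR adjusted p = 0.0909). Chrm2 varied little within vector, where vector 3 (17.4 CPM) did not stand apart as it did for Myh11. Ppp1r12b, a subunit of myosin phosphatase, was 67.4 to 223 CPM in vector and 16.5 to 59.9 CPM in TNBS. Irag1, which lets nitric oxide signals act on calcium stores, was 19.7 to 78.8 CPM in vector and 6.46 to 18.8 CPM in TNBS. Adam33, a protease of mesenchymal cells, was 8.38 to 20.3 CPM in vector and 1.59 to 7.65 CPM in TNBS. Gm49948, which the deposited table lists as protein coding, had no count in vector and 520 in TNBS (edgeR adjusted p = 0.111). Most of it was in TNBS 3 (5.596 CPM). Taking each count as 1 fragment, a floor of 3 counts per library made it at least 28.4-fold higher. That bound would be lower if a fragment is worth more than 1 count.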
